A study of Danio rerio with 35 samples.

Results

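Genes for proteins that build and anchor the Z-disc were read in messenger RNA of whole adult zebrafish hearts. The set is a list of symbols, drawn up with earlier results of these data known: of 10 named genes, 7 were found among the 14781 genes of the count table, and all 7 had enough counts to test. They were actn2b, ldb3a, ldb3b, csrp3, tcap, myoz2a and xirp1, while mypn, xirp2a and flncb were not analysed here. The hearts came from klf1 overexpressing fish and from wild-type (WT) fish, with 4 polyadenylated RNA libraries of each genotype. The study's title asks whether Klf1, a Krüppel-like transcription factor known from red blood cell development, induces renewal of adult heart muscle cells. The labels give neither the construct and cells in which klf1 was overexpressed nor the age of the fish beyond adult, and they do not say whether each library held 1 heart or several. Nothing states that each library is another fish, so p-values measure the spread between these libraries, which may be technical.

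The Z-disc is the border of the sarcomere, the contractile unit of striated muscle. There, actin filaments of neighbouring sarcomeres overlap with opposite polarity and are tied together by the crosslinker alpha-actinin, and the giant protein titin is fixed by its N-terminus. Adaptor proteins with PDZ and LIM domains dock on alpha-actinin. Myozenins tie the phosphatase calcineurin to alpha-actinin, which links the Z-disc to growth signalling of heart muscle cells.

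Libraries held between 9829896 and 13083853 gene counts. Levels are CPM, the usual unit of counts set to a common library total, here scaled with TMM factors, which correct for a few very abundant genes taking a different share of the reads. The overexpressed gene, klf1, averaged 646 ± 63.7 CPM in klf1 hearts and 216 ± 78.9 CPM in WT hearts (SD, n = 4 each), and the groups did not overlap (log2 fold change 1.58 ± 0.24 SE, edgeR adjusted p = 1.26e-04). The tissue label held: all 8 cardiomyocyte markers read, among them myl7, tnnt2a and vmhcl, were detected in every library. Their summed level was 26354 to 42270 CPM in klf1 libraries and 193191 to 230828 CPM in WT libraries, and all 8 were called lower (6 of 8 with library totals as the scale, where myh6 and tnni1b were not called). Of all tested genes 29.4% were called lower, and 13.3% with library totals. In a whole heart, fewer cells of a type and less RNA per cell cannot be told apart.

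Of the 7 Z-disc genes, 6 were lower in klf1 hearts and 0 higher (edgeR quasi-likelihood test, Benjamini-Hochberg adjusted p under 0.05), in a comparison where 29.4% of all 10493 tested genes were called lower. They split by size of change. The cytoskeletal crosslinker actn2b and the actin-binding protein gene xirp1 were 2.81-fold and 2.28-fold lower, the PDZ-LIM genes ldb3a and ldb3b 11.9-fold and 18.6-fold, the titin cap tcap 16.0-fold and the calcineurin-tethering myoz2a 35.6-fold lower. The LIM protein gene csrp3 was not called. The median log2 fold change of the 7, chosen with earlier results of these data known, was -3.58, against 0.03 over all genes tested. A negative log2 fold change means lower in klf1 hearts. All 4 klf1 libraries lay below all 4 WT libraries for 6 of the 7 genes, as they did for 27.2% of tested genes, and above them for 0, as for 29.8% of tested genes. At an unadjusted p under 0.05 edgeR with TMM factors also placed 0 of the 7 higher, and so did DESeq2 and limma-voom after adjustment. With library totals as the scale, csrp3 was higher at an edgeR unadjusted p of 0.0486 (adjusted p = 0.0611).

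**Figure D1:**
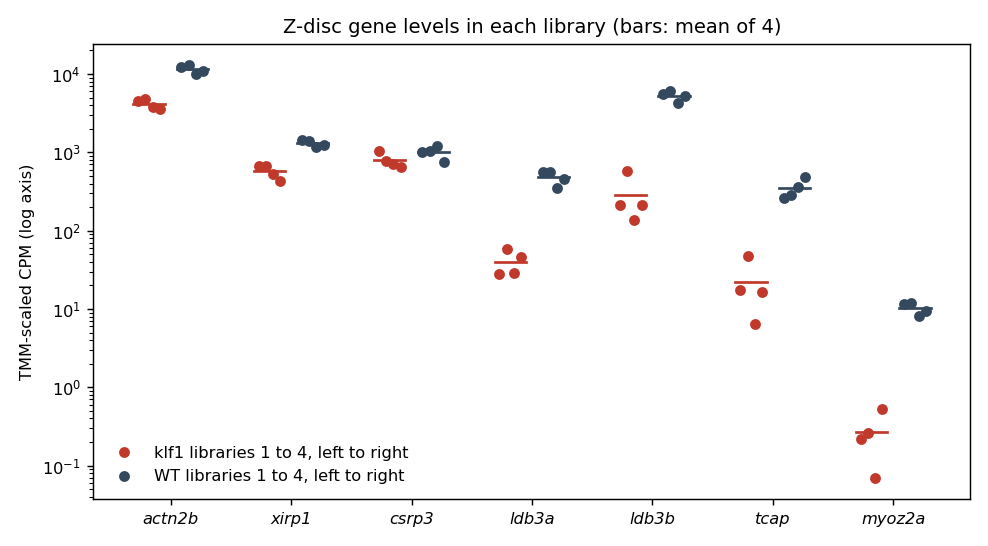
TMM-scaled CPM (log axis) of the 7 Z-disc genes in klf1 libraries (red, left of each pair) and WT libraries (blue, right), 1 point per library in the order 1 to 4, with bars at the mean of 4. The klf1 points lie below all WT points for every gene but csrp3, and the gap is widest for myoz2a, where klf1 libraries held at most 0.536 CPM.

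actn2b and xirp1 had the smallest changes of the 6 genes that fell. actn2b encodes the sarcomeric alpha-actinin, the main crosslinker of thin filaments at the Z-disc. It stood at 4530.4, 4743, 3759.9 and 3528 CPM in klf1 libraries 1 to 4, against 12263, 13178, 10034 and 11025 CPM in WT libraries 1 to 4. The groups stayed far apart, with the highest klf1 library below the lowest WT library by more than the whole spread of either genotype. The log2 fold change was -1.49 ± 0.18 (SE; edgeR adjusted p = 1.97e-05). actn2b took 0.53 ± 0.0716% of all counts of a library in klf1 hearts and 0.907 ± 0.117% in WT hearts (SD, n = 4 each).

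xirp1 encodes a Xin repeat protein, which in mammals binds actin filaments and sits at the intercalated disc, where heart muscle cells are joined end to end. Its level was 676, 665, 525 and 436 CPM in klf1 libraries 1 to 4, against 1438, 1394, 1155 and 1257 CPM in WT libraries 1 to 4. No library of one genotype reached the range of the other. The log2 fold change of -1.19 ± 0.18 (SE; edgeR adjusted p = 0.000104) was the smallest among the 6 genes that fell.

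ldb3a and ldb3b are paralogs of the mammalian gene for Cypher, also called ZASP, an adaptor that holds alpha-actinin through its PDZ domain. ldb3b read 211, 583, 138 and 212 CPM in klf1 libraries 1 to 4, against 5534, 6156, 4291 and 5266 CPM in WT libraries 1 to 4. All 4 klf1 libraries were far below WT, and klf1 library 2 stood above the other 3 klf1 libraries. Its log2 fold change was -4.22 ± 0.42 (SE; edgeR adjusted p = 3.81e-06), the 55th lowest of the 10493 tested genes, and -4.84 without klf1 library 2. ldb3a read 27.7, 58.5, 28.5 and 46.7 CPM in klf1 libraries 1 to 4, against 556, 555, 354 and 463 CPM in WT libraries 1 to 4. Here too klf1 library 2 was the highest of its genotype, and the groups did not overlap (log2 fold change -3.58 ± 0.27 SE, edgeR adjusted p = 4.76e-07). The difference between the paralogs' falls was not resolved: the log2 ratio of ldb3a to ldb3b counts was -2.68 ± 0.54 in klf1 and -3.47 ± 0.12 in WT libraries (SD, n = 4 each), with overlapping groups (exact two-sided permutation test, p = 0.0571). The overlap was narrow, between klf1 library 2 (-3.316) and WT library 1 (-3.314), and leaving out either library set the groups apart. Reads that fit both copies could have been split between them, since the counting method is not given in the sources used here.

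tcap encodes telethonin, which in mammals clamps the N-termini of a pair of titin molecules together at the Z-disc. It read 17.4, 46.9, 6.49 and 16.6 CPM in klf1 libraries 1 to 4, against 261, 289, 363 and 488 CPM in WT libraries 1 to 4. Relative to its mean, tcap had the widest spread of the 7 genes in both genotypes, and klf1 library 2 was again the highest of the klf1 libraries. The groups nevertheless did not overlap (log2 fold change -4.00 ± 0.53 SE, edgeR adjusted p = 9.45e-05), and without klf1 library 2 the log2 fold change was -4.70.

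myoz2a encodes a myozenin, also called calsarcin, which ties calcineurin to alpha-actinin. Its counts were 3, 4, 1 and 9 in klf1 libraries 1 to 4, against 102, 96, 68 and 77 in WT libraries 1 to 4. These are 0.221, 0.263, 0.0691 and 0.536 CPM in klf1 libraries and 11.7, 12.1, 8.2 and 9.44 CPM in WT libraries. The klf1 libraries were close to the level of 3 counts, which lay between 0.179 and 0.378 CPM over the 8 libraries. Summed over libraries, 17 counts stood against 343, a level 36.6-fold lower in klf1 hearts (exact 95% interval 22.5 to 63.6, for counting error only). The edgeR fit gave a log2 fold change of -5.15 ± 0.35 (SE; adjusted p = 2.04e-07), the 24th lowest of all tested genes.

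csrp3 encodes muscle LIM protein, which in mammals moves between the Z-disc and the nucleus and is tied to the sensing of stretch. It read 1036, 782, 702 and 649 CPM in klf1 libraries 1 to 4, against 1001, 1045, 1204 and 751 CPM in WT libraries 1 to 4. The groups overlapped, with klf1 library 1 in the middle of the WT range and WT library 4 below klf1 library 2. The log2 fold change was -0.34 ± 0.20 (SE; edgeR adjusted p = 0.157). It was called without klf1 library 1 (-0.50, adjusted p = 0.0357), and scaling by library totals turned its sign (0.38, adjusted p = 0.0611).

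With library totals in place of TMM factors, the median over all tested genes shifted to 0.75 on the log2 scale. The same 6 genes were called lower and 0 higher there, where 13.3% of tested genes were called lower and 65.1% higher, with log2 fold changes from -4.45 for myoz2a to -0.47 for xirp1. Since the size of each fall depends on the scale, the genes were also set against one another within a library, which needs no scaling.

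**Figure D2:**
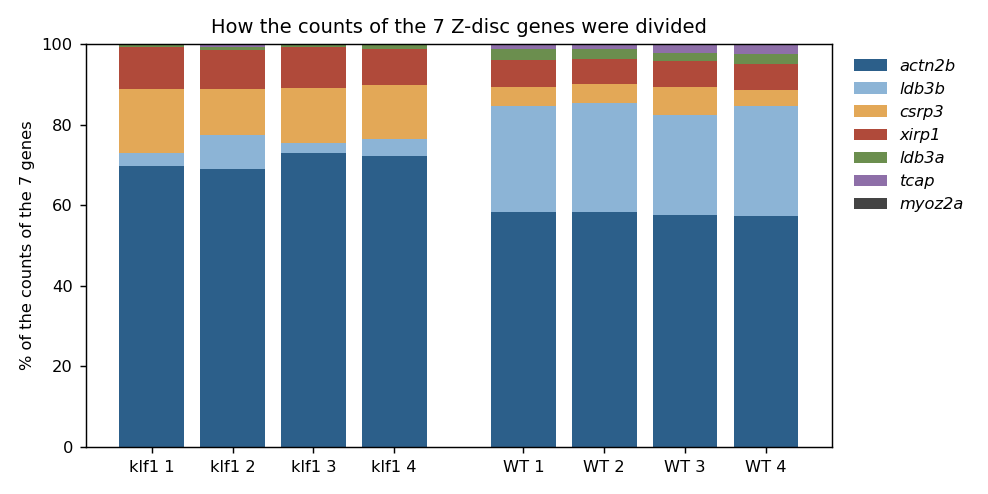
Share of the summed counts of the 7 Z-disc genes that each gene took (%, stacked to 100) in klf1 libraries 1 to 4 (left) and WT libraries 1 to 4 (right). ldb3b filled 2.68 to 8.47% in klf1 libraries and 24.6 to 27.3% in WT libraries, and csrp3 filled 11.4 to 15.9% in klf1 libraries and 3.9 to 6.92% in WT libraries.

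The set held a different mixture of transcripts in klf1 hearts. Together the 7 genes took 0.749 ± 0.12% of library counts in klf1 hearts and 1.57 ± 0.196% in WT hearts (SD, n = 4 each). Within that sum, not adjusted for gene length, actn2b made up 70.9 ± 1.88% in klf1 and 57.8 ± 0.48% in WT libraries. The share of ldb3b was 4.68 ± 2.62% in klf1 and 26.4 ± 1.24% in WT libraries, so the second largest contributor in WT hearts ranked below csrp3 and xirp1 in klf1 hearts. csrp3 held 13.5 ± 1.88% in klf1 and 5.05 ± 1.3% in WT libraries. tcap made up 0.354 ± 0.236% in klf1 and 1.78 ± 0.633% in WT libraries.

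Set against actn2b, which in mammals binds the ldb3 and myozenin proteins, 6 of 6 genes had ratios that did not overlap between genotypes. ldb3a, ldb3b, tcap and myoz2a fell further than actn2b, by a further 4.39-fold, 7.64-fold, 7.0-fold and 14.2-fold. csrp3 and xirp1 were higher relative to actn2b, by 2.22-fold and 1.22-fold. Of the other tested genes, 4.89% lay wholly lower in klf1 libraries relative to actn2b and 78.6% wholly higher, so a higher ratio, as of csrp3 and xirp1, was the common case and a lower one was not. The genes were chosen with earlier results of these data known, so this contrast is no support for the set. Each of the 6 ratios had the smallest p that 4 against 4 libraries allow (exact two-sided permutation test over 70 assignments, p = 0.0286, adjusted over the 7 ratios computed 0.0333). Any ratio whose groups do not overlap reaches this p. The xirp1 ratio moved little: the log2 ratio was -2.86 ± 0.114 in klf1 and -3.15 ± 0.0652 in WT libraries (SD, n = 4 each).

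**Figure D3:**
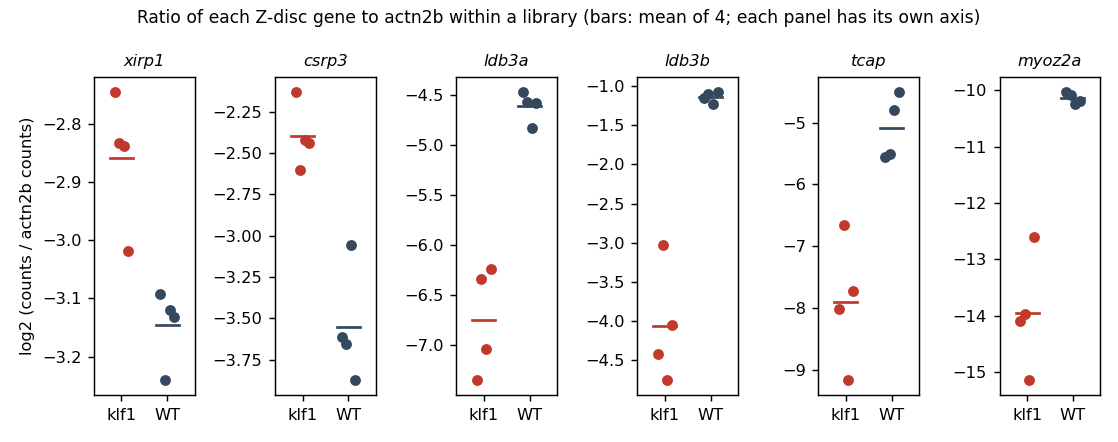
log2 ratio of each gene's counts to actn2b counts within a library, klf1 libraries on the left of each panel and WT libraries on the right, with bars at the mean of 4 and a separate axis per panel. xirp1 and csrp3 lie higher in all 4 klf1 libraries, and ldb3a, ldb3b, tcap and myoz2a lower.

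The heart muscle cell markers fell as well, which gives a further yardstick. For every 1000 counts of the 8 cardiomyocyte markers, actn2b had 118 ± 23.3 counts in klf1 and 53.6 ± 6.36 in WT libraries (SD, n = 4 each). xirp1 had 16.5 ± 4.11 in klf1 and 6.05 ± 0.597 in WT libraries. csrp3 had 22.7 ± 6.33 in klf1 and 4.58 ± 0.637 in WT libraries, 4.85-fold higher. These 3 genes were higher relative to the markers with no overlap between genotypes, as were 93.8% of the tested genes that are no marker, so this direction says nothing particular about them. Single markers also fell less than actn2b (-1.49): tnni1b had a log2 fold change of -0.52 and myh6 of -1.16.

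The other 4 genes were lower by the same yardstick, as were 1.07% of the tested genes that are no marker. ldb3b had 7.59 ± 4.14 counts per 1000 marker counts in klf1 and 24.6 ± 3.94 in WT libraries (SD, n = 4 each). tcap had 0.567 ± 0.376 in klf1 and 1.65 ± 0.62 in WT libraries, ldb3a 1.11 ± 0.247 in klf1 and 2.22 ± 0.429 in WT libraries, and myoz2a 0.00715 ± 0.00455 in klf1 and 0.0477 ± 0.0077 in WT libraries. The tcap groups were only narrowly apart, with 1.110 in klf1 library 2 and 1.131 in WT library 1. All 7 ratios had an exact two-sided permutation p of 0.0286, also after adjustment over the 7. Any ratio whose groups do not overlap reaches this p. Most tested genes that are no marker reach it, 93.8% wholly higher and 1.07% wholly lower, so the p itself sets none of the 7 apart. The lower direction was the rarer one, but the genes were chosen with earlier results of these data known, so its rarity is no support for them. These ratios were also added after the values were seen. The myosin heavy chain vmhcl supplied 50.1 to 62.0% of the marker counts in klf1 and 45.9 to 54.6% in WT libraries. Without vmhcl in the sum, the groups overlapped for ldb3a and tcap and stayed apart for the other 5 genes. With the geometric mean of the 8 markers all 7 stayed apart in the same directions.

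**Figure D4:**
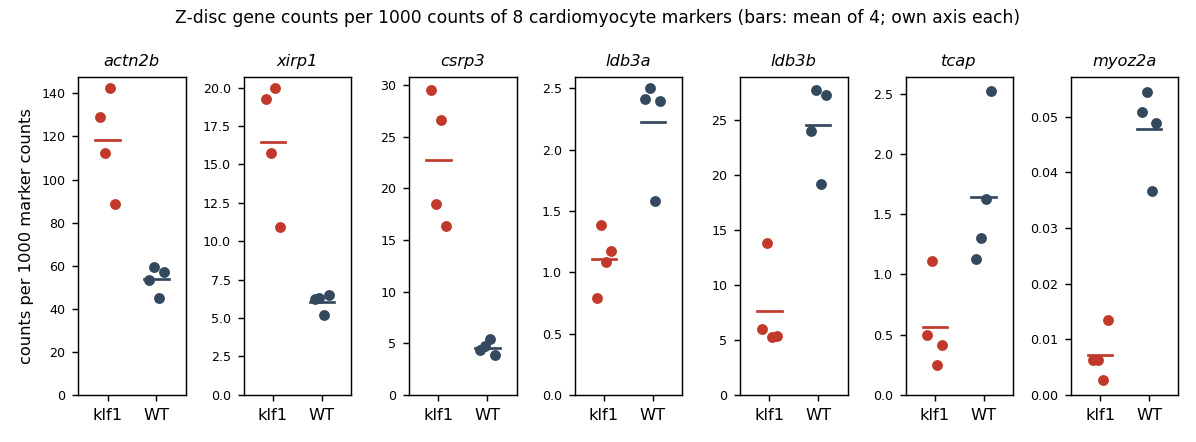
Counts of each Z-disc gene per 1000 summed counts of 8 cardiomyocyte markers, klf1 libraries left and WT libraries right in each panel, bars at the mean of 4, each panel with its own axis from 0. actn2b, xirp1 and csrp3 lie higher in all klf1 libraries and ldb3a, ldb3b, tcap and myoz2a lower.

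klf1 library 2 was the highest klf1 library for 4 of the 7 genes, actn2b, ldb3a, ldb3b and tcap. It was also the highest klf1 library for 4 of the 8 cardiomyocyte markers and in their sum, at 42270 CPM against 26354 to 39774 CPM in the other klf1 libraries. Per 1000 marker counts ldb3b was also high in it, at 13.8, against values between 5.24 and 6.0 in the other 3 klf1 libraries. What set this library apart was not tested.

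Paralogs moved in opposite directions in the alpha-actinin and PDZ-LIM families. Alpha-actinin is encoded by sarcomeric and by non-muscle genes. Beside actn2b, actn3a, known as a skeletal muscle form, was lower (0.494 ± 0.281 CPM in klf1 and 2.9 ± 0.843 CPM in WT hearts, SD, n = 4 each), and actn3b had too few counts to test. The non-muscle forms rose. actn1, found along stress fibres and adhesions, read 288, 272, 416 and 382 CPM in klf1 libraries 1 to 4, against 38.1, 44.1, 30.8 and 36.5 CPM in WT libraries 1 to 4. Its log2 fold change was 3.18 ± 0.19 (SE; edgeR adjusted p = 8.34e-08), and that of actn4 was 2.02 ± 0.15 (adjusted p = 4.78e-07). actn2b remained the main source of alpha-actinin reads, with 86.8 ± 3.25% of the family's counts in klf1 and 99.1 ± 0.0523% in WT libraries.

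Among PDZ-LIM genes, the 4 that fell were ldb3a, ldb3b and both pdlim5 copies, whose mammalian counterpart is an alpha-actinin binding adaptor of heart muscle. pdlim5b averaged 586 ± 124 CPM in klf1 and 1794 ± 244 CPM in WT hearts (SD, n = 4 each; log2 fold change -1.62 ± 0.19 SE), and pdlim5a 3.01 ± 0.372 CPM in klf1 and 35.4 ± 6.06 CPM in WT hearts (-3.55 ± 0.17). pdlim1 rose by 1.89 ± 0.21, pdlim3b by 1.26 ± 0.19 and pdlim4 by 0.53 ± 0.16 on the log2 scale, each called by edgeR. Of all tested genes 29.4% were called lower and 32.2% higher. pdlim2 and pdlim3a were not called. ldb3b held 21.7 ± 9.4% of the family's counts in klf1 and 68.2 ± 3.48% in WT libraries.

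**Figure D5:**
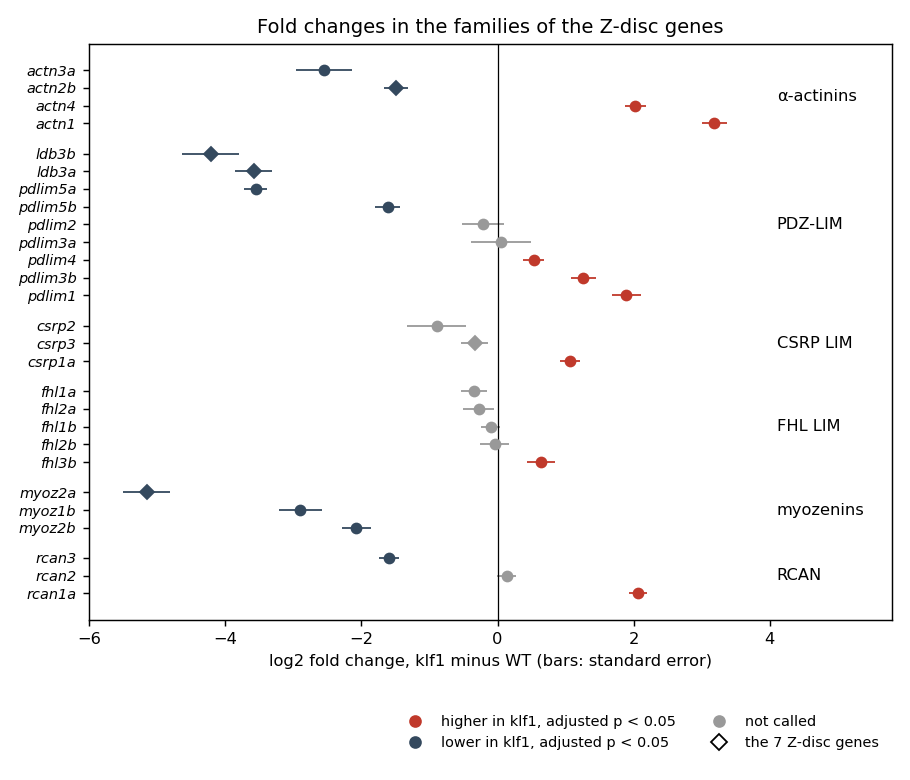
log2 fold change (klf1 minus WT, bars one standard error) of every tested gene in 6 families, with the Z-disc set as diamonds, genes called higher in red, lower in blue and not called in grey. actn1 and actn4 lie right of 0 and actn2b left, all tested myozenins lie left, and 4 of 5 tested FHL genes are grey.

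LIM-only families held several genes without a call. Of the 4 genes of its family, csrp3 and csrp2 were not called and csrp1a, which is not confined to striated muscle, was higher at 40.1 ± 6.57 CPM in klf1 and 19.2 ± 2.29 CPM in WT hearts (SD, n = 4 each; edgeR adjusted p = 5.11e-05). csrp1b had too few counts to pass the filter and was not tested. It had 14, 35, 6 and 45 counts in klf1 libraries 1 to 4, against 0, 0, 2 and 1 in WT libraries 1 to 4. csrp3 kept 94.9 ± 0.4% of the family's counts in klf1 and 97.9 ± 0.471% in WT libraries. In the four-and-a-half-LIM family, fhl1a read 1288 ± 287 CPM in klf1 and 1633 ± 235 CPM in WT hearts and was not called (log2 fold change -0.34 ± 0.19 SE, edgeR adjusted p = 0.135). It shared with csrp3 a call without klf1 library 1 (-0.52, adjusted p = 0.0257). Of the other tested members fhl1b, fhl2a and fhl2b were not called either, and fhl3b was higher (0.64 ± 0.20), a call lost without WT library 4. With library totals fhl1b (0.62) and fhl2b (0.67) were called higher.

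The genes around calcineurin at the Z-disc went in both directions. All 3 tested myozenins fell (29.4% of all tested genes were called lower, 13.3% with library totals), and myoz2b was the paralog with more counts. It read 127, 151, 101 and 84.8 CPM in klf1 libraries 1 to 4, against 621, 469.8, 387 and 470.4 CPM in WT libraries 1 to 4, with a log2 fold change of -2.07 ± 0.21 (SE; edgeR adjusted p = 4.22e-06). myoz1b had few counts, 0.745 ± 0.203 CPM in klf1 and 5.63 ± 1.92 CPM in WT hearts (SD, n = 4 each). Its log2 fold change was -2.90 ± 0.31 (SE), and myoz1a had too few counts to test. Of the regulators of calcineurin, rcan1a, known in mammals as a feedback inhibitor that calcineurin signalling itself switches on, read 313, 261, 281 and 301 CPM in klf1 libraries 1 to 4, against 67.6, 67.3, 78.1 and 63.1 CPM in WT libraries 1 to 4 (log2 fold change 2.07 ± 0.13 SE, adjusted p = 1.29e-07). rcan3 fell by 1.59 ± 0.15 on the log2 scale, and rcan2 passed the test only when library totals set the scale (0.84, against 0.13 ± 0.14 with TMM factors).

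Beyond the 7 genes, a wider list of Z-disc and Z-disc associated genes was mixed. Of 31 tested, 12 were lower (29.4% of all tested genes were) and 8 higher (32.2% were), and the median log2 fold change was -0.28. With library totals 10 were lower and 13 higher (13.3% and 65.1% of all tested genes were). The median was then 0.44, against 0.75 over all tested genes. Among those that fell was nexn, for an actin-binding Z-disc protein, at 607 ± 44.2 CPM in klf1 and 1518 ± 151 CPM in WT hearts (SD, n = 4 each). smpx, a small muscle protein gene, stood at 383 ± 119 CPM in klf1 and 1942 ± 199.7 CPM in WT hearts, and klhl31, a kelch-like gene of striated muscle, at 243 ± 48.5 CPM in klf1 and 982 ± 27.3 CPM in WT hearts. The desmin gene desma, whose filaments link neighbouring Z-discs, was lower at 1071 ± 233 CPM in klf1 and 1987 ± 149 CPM in WT hearts, a call lost with library totals (log2 fold change -0.18).

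Those that rose with rcan1a included lmcd1, for a LIM protein, at 62.1 ± 6.53 CPM in klf1 and 20.9 ± 2.19 CPM in WT hearts (SD, n = 4 each). nrap, for an actin-binding scaffold that in mammals takes part in myofibril assembly, was higher by 0.61 ± 0.17 on the log2 scale. The capping protein gene capza1a, whose product closes the barbed ends of actin filaments, was higher by 0.70 ± 0.11, while capza1b and capzb were not called. Both were higher with library totals (0.97 and 0.47), and capza1b also by DESeq2 (0.23) and with upper-quartile factors (0.33). bag3, a co-chaperone of the Z-disc, stood at 148 ± 19.1 CPM in klf1 and 188 ± 26.1 CPM in WT hearts and was not called (edgeR adjusted p = 0.0543). It was called lower by DESeq2 (-0.37) and with DESeq2 size factors in edgeR (-0.37). The same held without klf1 library 1 (-0.39), klf1 library 3 (-0.41) or WT library 3 (-0.43). With library totals bag3 was called higher (0.37).

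Structures that carry the pull of the Z-disc onward were split as well. Of 21 tested costamere and integrin adhesion genes, which fasten Z-discs to the cell membrane, 10 were lower and 8 higher (29.4% and 32.2% of all tested genes were), and the median log2 fold change was -0.30. With library totals 7 were lower and 11 higher (13.3% and 65.1% of all tested genes were). The median was then 0.42, against 0.75 over all tested genes. Among the 8 higher, ilk (edgeR adjusted p = 0.0474) and sgcb (0.0418) passed narrowly. Both calls were lost with DESeq2 size factors in edgeR and in most fits that left out a single library. tln2a, whose mammalian counterpart is the talin enriched in striated muscle, was lower at 14.5 ± 4.79 CPM in klf1 and 234 ± 53.1 CPM in WT hearts (SD, n = 4 each; log2 fold change -4.00 ± 0.25 SE), while the ubiquitous tln1 stood at 498 ± 125 CPM in klf1 and 435 ± 104 CPM in WT hearts and was not called (higher with library totals, 0.91). lims2 fell (-2.87 ± 0.28) and its paralog lims1 rose (1.23 ± 0.16), both genes for adaptors of integrin-linked kinase. The sarcoglycan gene sgcd fell by 1.78 ± 0.14 on the log2 scale and sgcg by 0.68 ± 0.12, the second not called with library totals. parvb was called lower (-0.42 ± 0.14), a call that turned to higher with library totals (0.30). The call was also lost with upper-quartile factors and without klf1 library 3 or 4 or WT library 2. Its paralogs parvaa (0.95 ± 0.13) and parvab (1.46 ± 0.16) were higher with either scale.

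The M-band gene myom1a, which ties myosin filaments in the middle of the sarcomere, stood at 7.17 ± 0.695 CPM in klf1 and 70.6 ± 11.1 CPM in WT hearts (SD, n = 4 each; log2 fold change -3.30 ± 0.15 SE). obsl1a, the other tested gene of the titin and M-band list, was not called, and was higher with library totals (0.66). At the intercalated disc, home of xirp1, 3 of 9 tested genes were lower and 3 higher, near the 29.4% and 32.2% of all tested genes. With library totals 2 were lower and 5 higher (13.3% and 65.1% of all tested genes were). The desmosomal cadherin gene dsc2l rose most, to 1458 ± 195 CPM in klf1 hearts, against 177 ± 43.2 CPM in WT hearts, followed by the actin regulator gene vaspa (2.42 ± 0.28) and plakoglobin, jupa (0.91 ± 0.14). The N-cadherin gene cdh2 stood at 701 ± 203 CPM in klf1 and 1087 ± 292 CPM in WT hearts and was not called (edgeR adjusted p = 0.0559), but it was called lower by DESeq2 (-0.66), with DESeq2 size factors in edgeR (-0.66), and without klf1 library 2 (-0.73) or WT library 3 (-0.82). The gap junction gene gja3 was lower (-1.10). The desmosomal plakophilin gene pkp2 was also lower (-1.43 ± 0.20), with library totals too (-0.72). Beta-catenin, ctnnb1, was not called (-0.26) but was higher with library totals (0.46) and lower by DESeq2.

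The filaments that the Z-disc anchors were read as a list that overlaps the cardiomyocyte markers. Both hold vmhcl, myl7, cmlc1, actc1a, tnnt2a, tnni1b and myh6, so their falls are the same result for these genes. Of 18 tested genes of the contractile filaments, 13 were lower and 2 higher (29.4% and 32.2% of all tested genes were), with a median log2 fold change of -1.40. With library totals 9 were lower and 4 higher (13.3% and 65.1% of all tested genes were). The median was then -0.69, against 0.75 over all tested genes. The list had a summed level of 35411 to 53056 CPM in klf1 and 224033 to 268069 CPM in WT libraries. The ventricular myosin heavy chain-like gene vmhcl had a log2 fold change of -2.48 and the atrial and ventricular light chain gene myl7 of -3.94. The cardiac actin gene actc1a had -3.93 and the tropomyosin gene tpm4a -1.77. The gene named ventricular myosin heavy chain, vmhc, was not called (0.018, edgeR adjusted p = 0.955) and was higher with library totals (0.73). lmod2a, for a leiomodin that acts at thin filament pointed ends, had the lowest at -7.38, and -8.54 without klf1 library 2. tpm3 (0.94) and tnnc1b (0.83), a tropomyosin and a troponin C gene, were the 2 that rose, and the genotypes overlapped for tnnc1b.

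Markers of other cell types were read beside these groups. Their calls stand against 29.4% of all tested genes lower and 32.2% higher. With library totals these shares were 13.3% and 65.1%. Of 12 tested macrophage and granulocyte markers, 11 were higher and 0 lower with either scale, with a summed level of 1406 to 1881 CPM in klf1 and 318 to 743 CPM in WT libraries. Of 10 tested fibroblast markers, 6 were higher and 0 lower (10 and 0 with library totals), with a sum of 2195 to 5275 CPM in klf1 and 1351 to 1850.3 CPM in WT libraries. Of 3 tested smooth muscle markers, tagln was higher (2 were with library totals), and the list summed to 246 to 332 CPM in klf1 and 157 to 233 CPM in WT libraries. Their part in the rise of actn1, actn4, pdlim1, csrp1a and the adhesion genes was not tested. Of 6 tested skeletal muscle markers 1 was higher, mybpc1, and 1 lower, actn3a (2 and 1 with library totals), and the list summed to 78.9 to 289 CPM in klf1 and 33.8 to 44.5 CPM in WT libraries. Most of that sum was mybpc1 alone, at 72.3 to 281 CPM in klf1 and 18.3 to 32.6 CPM in WT libraries. The higher sum is therefore no rise of the list as a group. The fast myosin genes myhz1.1, myhz1.2 and myhz2 and the fast troponin gene tnni2a.4 were at 0 in all 8 libraries, and no upper limit is set on them. The beta-globin gene ba1 was also at 0 while ba1l read 262 to 598 CPM over the 8 libraries, so whether reads of near-identical genes were counted is not known. Of 10 tested endothelial markers, 6 were lower and 0 higher (1 and 3 with library totals), with a sum of 1115 to 1475 CPM in klf1 and 1320 to 1922 CPM in WT libraries. Of 6 tested erythroid markers 2 were lower, alas2 and epb41b, and 0 higher (0 and 2 with library totals), with a sum of 1029 to 1573 CPM in klf1 and 1011 to 1940 CPM in WT libraries. The calls of alas2 and epb41b were lost with upper-quartile factors and without klf1 library 1 or 2 or WT library 2 or 4, and that of alas2 also without klf1 library 4 or WT library 3.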

How the data were processed

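The 8 libraries of polyadenylated heart RNA, 4 per genotype, were grouped by the genotype in the labels. The deposited values are raw counts per gene and library, neither normalized nor pooled, per the file headers and the values, and libraries were Kapa stranded, per the labels' protocols. The submitters' processing notes name danRer10, Bowtie2 2.2.8 and deepTools 3.1.2 without their roles. For RNA, the aligner, counter and strand setting were not given in the sources used here, so overlapping and near-identical genes are uncertain. All 8 columns of the joint table equalled the file of a single library. Libraries of a genotype differed beyond sampling noise, with 7.9 to 53.9 as chi-square over degrees of freedom. The other 27 of 35 samples were not analysed here.

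In R 4.3.3, genes passing edgeR's filterByExpr (10493) were scaled by TMM (1.23 to 1.32 in klf1, 0.75 to 0.83 in WT libraries) and tested with edgeR 4.0.16's robust quasi-likelihood F-test, adjusted over all of them. Standard errors are approximate, obtained from the log2 fold change and the F statistic. Ratios are log2 after adding 0.5 counts and were compared by exact permutation. A level of 3 counts served as the floor, for counting error only. The edgeR fit was tested on simulated counts in which few genes changed, as many up as down. That setting does not test the scaling of these data, where many genes changed. The permutation test was checked on a fixed example.

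The members and lists were chosen with earlier results of these data known. From each list the genes named are the 3 with most counts, the 3 with the smallest adjusted p and any called higher where these are 5 or fewer. The 5 genes most like actn2b and csrp3 over the libraries are named too. Further genes, the 6 families and the ratios to cardiomyocyte markers were added after their values were seen. Of the ratios planned, 7 could be formed with the genes at hand. No gene lengths of the build were used. Levels are compared between genotypes, and shares and ranks between genes are of counts, not adjusted for length. Alternatives were other scalings, filters and tests (DESeq2 1.42.0, limma 3.58.1) and leaving out each library.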

Additional observations from a re-analysis of the deposited data

Results flagged for a closer look

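Among 92 groups of 4 libraries examined, 5 held a value whose gap to its neighbour passed the 95% limit of Dixon's test, and chance flags about 1 group in 20. Among klf1 libraries, ldb3b stood at 583 CPM in library 2, against at most 212 CPM in the others, and at 13.8 counts per 1000 cardiomyocyte marker counts. Among WT libraries, ldb3a stood at 1.58 counts per 1000 marker counts in library 3, against at least 2.39 in the others. The titin and M-band list came down to 2 genes, myom1a and obsl1a, neither of them a titin gene. Their summed level was 369 CPM in WT library 2, and that of the intercalated disc genes was 2196 CPM in WT library 3.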

How the results depend on the processing

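The count of 6 genes called lower and 0 higher held under 16 of 17 alternatives, and became 7 lower without klf1 library 1, where csrp3 was added. The log2 fold change of csrp3 lay between -0.50 and 0.38 and was reversed only with library totals (0.38). Over the alternatives, actn2b lay between -1.57 and -0.78, xirp1 between -1.29 and -0.47, ldb3a between -3.82 and -2.86, ldb3b between -4.84 and -3.50, tcap between -4.70 and -3.29 and myoz2a between -5.72 and -4.45, and none lost its call. The largest adjusted p among these 6 genes was 0.0217, for xirp1 with library totals. The wider Z-disc list had 10 to 14 genes called lower. Of all tested genes 29.4% were called lower in the main fit and 13.3% with library totals. Rises made up 52.3% of calls under TMM scaling, and 83.0% where library totals were the scale. The ratios to actn2b and of the ldb3 pair were apart in 6 to 7 of 7, and those to the markers in 5 to 7 of 7. Most tested genes were apart too. Relative to actn2b 4.89% lay wholly lower and 78.6% wholly higher, and relative to the markers 1.07% and 93.8%. These counts of ratios therefore do not set the genes apart. No paired analysis was possible because the labels number the libraries as separate preparations and give no number that genotypes share. In klf1 libraries depth limits myoz2a, which had at most 9 counts.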

Other observations

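The tested genes outside the set whose levels moved most like actn2b over the 8 libraries were smarcd3b, a subunit of a cardiac chromatin remodeller, tufm, a mitochondrial elongation factor, enah, phb2a and uqcc1. Their centred log2 CPM profiles differed from that of actn2b by a root mean square of 0.083 to 0.0994, and their log2 fold changes ran from -1.57 to -1.43. Fold changes near that of the gene matched follow from this way of picking, because the profiles span both genotypes. The genes most like csrp3 were nsun4, fhl1a, mmab, a locus with only a clone name and znf706, at 0.0571 to 0.0997. Of these only fhl1a is a muscle LIM gene, and only znf706 was called (log2 fold change -0.38, edgeR adjusted p = 0.0349).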
